A study of Homo sapiens with 12 samples.

Results

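The expression of the 8 E2F transcription factor genes (E2F1 to E2F8), of the dimer partner TFDP1 and of the retinoblastoma gene RB1 was examined in the deposited table of 60671 genes. These 10 genes were chosen by name, and each was found once in the table with an Ensembl identifier that carries the same symbol in the annotation. The 12 RNA-seq libraries fell into 4 groups of 3 from cells labelled Jurkat, a line from human T cell leukemia. Control cells (NC) are called WT in the labels and are described in the methods of the study as carrying the GFP vector, and PTPN21 cells overexpressed the phosphatase PTPN21 with a FLAG tag from the SFFV promoter of the same vector. Both kinds of cells were kept for 48 h with vincristine (VCR), a drug that blocks microtubule assembly, or with its solvent DMSO, and the groups are written NC+DMSO and NC+VCR for the former and PTPN21+DMSO and PTPN21+VCR for the latter cells. The VCR dose of the libraries is not given in the sources used here, and the sources name 3 replicates a group without saying whether the sequenced libraries came from separate cultures. The p-values then measure only the spread between these libraries, which may be technical.

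E2F factors bind DNA as dimers with a DP protein such as TFDP1 and control the genes that take a cell from G1 phase into DNA replication. E2F1, E2F2 and E2F3 are known as activators that RB1 holds back, and phosphorylation of RB1 by cyclin D and cyclin E kinases releases them. E2F4 and E2F5 bind mainly the RB relatives RBL1 and RBL2 and repress in resting cells, E2F6 represses without RB proteins, and E2F7 and E2F8 are atypical repressors that bind DNA without a DP partner. Several E2F genes carry E2F sites of their own and are themselves induced at the entry into S phase.

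The values were compared with the labels before the genes were described. PTPN21 lay between 0.0212 and 0.569 FPKM (fragments scaled to gene length and to the total of the library) in the 6 NC libraries and between 4.34 and 10.5 FPKM in the 6 PTPN21 libraries, without overlap. The cell type on the labels was not borne out by its markers. Of 9 T lineage genes, LCK, CD28 and CD247 were at 0 in the 12 libraries, CD3E reached at most 0.146 FPKM and CD2 at most 0.0287 FPKM, and CD3D was the single gene that averaged 1 FPKM or more (61.8 to 140 FPKM). TRAC averaged 0.991 FPKM and reached 3.01 FPKM, CD3G reached 1.03 FPKM and CD7 reached 0.605 FPKM. In contrast, the erythroid gene HBA1 (49.4 to 190 FPKM) and the epithelial genes KRT8 (236 to 1186 FPKM), KRT18 (91.9 to 437 FPKM) and EPCAM (58.3 to 123 FPKM) were measured in every library, while HBB reached at most 1.66 FPKM and CDH1 at most 1.83 FPKM. The summed FPKM of the B lineage list was 0.234 to 1.84 and that of the myeloid list, nearly all of it LYZ, 9.09 to 17.0. The cells are therefore called by their label only. Depth is not given with FPKM. A relative depth read from the steps of low values was 0.603 to 0.696 of the deepest library in NC+DMSO, 0.719 to 0.759 in NC+VCR, 0.941 to 1 in PTPN21+DMSO and 0.858 to 0.951 in PTPN21+VCR, so that every PTPN21 library was deeper than every NC library, and depth and construct cannot be told apart.

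The upstream sequences of E2F1, E2F2 and E2F4 are shown because these were the members whose VCR libraries lay below their DMSO libraries without overlap in both kinds of cells. Each is the stretch of 250 bases before the RefSeq start on GRCh38.p14, written 5′ to 3′ on the strand of the gene, with capitals for an E2F word (TTTCCCGC, TTTGGCGC, TTTCGCGC or TTTGCCGC, searched on both strands). The stretch of E2F1 is chr20:33686386-33686635 on the minus strand, that of E2F2 is chr1:23531234-23531483 on the minus strand and that of E2F4 is chr16:67191905-67192154 on the plus strand.
E2F1: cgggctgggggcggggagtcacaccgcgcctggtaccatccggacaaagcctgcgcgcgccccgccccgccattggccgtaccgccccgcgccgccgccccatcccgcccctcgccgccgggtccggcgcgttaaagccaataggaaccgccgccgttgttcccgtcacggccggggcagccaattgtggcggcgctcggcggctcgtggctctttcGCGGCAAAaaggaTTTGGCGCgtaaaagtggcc
E2F2: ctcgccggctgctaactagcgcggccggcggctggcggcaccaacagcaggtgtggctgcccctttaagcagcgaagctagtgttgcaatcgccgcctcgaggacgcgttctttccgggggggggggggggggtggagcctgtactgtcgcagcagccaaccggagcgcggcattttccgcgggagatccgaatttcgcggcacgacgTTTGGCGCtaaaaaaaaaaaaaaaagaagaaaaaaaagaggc
E2F4: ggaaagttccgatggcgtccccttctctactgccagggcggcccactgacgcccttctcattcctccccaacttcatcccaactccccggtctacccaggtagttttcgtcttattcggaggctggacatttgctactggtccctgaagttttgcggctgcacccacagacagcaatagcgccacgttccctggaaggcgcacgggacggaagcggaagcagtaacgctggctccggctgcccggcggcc

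The E2F1 stretch held 2 E2F words, TTTGCCGC on the opposite strand from 33 to 26 bases before the start and TTTGGCGC from 20 to 13 bases before it. In E2F2, TTTGGCGC stood from 42 to 35 bases before the start, and in E2F4 none of the 4 words was found. The first E2F3 entry held TTTCCCGC on the opposite strand from 53 to 46 bases before its start and the TFDP1 entry held TTTCGCGC on the opposite strand from 120 to 113 bases before its start. No word was found in the entries of E2F6, E2F7 and RB1, and the RB1 entry (chr13:48476200-48476449) lies inside the annotated gene rather than at its outer start. Thus 4 of the 8 members with a RefSeq entry held an E2F word, E2F3 in only the first of its 2 entries. Of the 35116 entries of the same length, 2.79% held one. The 2 shares are not like for like, since one counts genes and the other entries. The entries of the members other than RB1 were also 58.8% to 78.4% guanine and cytosine, and no share matched for this was computed. The cell cycle homology words TTTGAA and TTCGAA were found in E2F3 alone among these members and in 14.3% of the entries. A match describes letters only and was not tested as a binding site. E2F5 and E2F8 are named only.

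E2F4 was by far the most abundant transcript of the family. Averaged over the 12 libraries, E2F4 stood at 35.9 FPKM and TFDP1 at 19.0 FPKM, and E2F4 exceeded TFDP1 in 12 of 12 libraries although their ranges met. The following genes were E2F3 (2.90 FPKM), E2F8 (2.73 FPKM), RB1 (2.21 FPKM) and E2F1 (2.15 FPKM), and then E2F6 (1.48 FPKM), E2F7 (1.25 FPKM), E2F5 (0.904 FPKM) and E2F2 (0.638 FPKM). From E2F3 downwards the ranges of neighbours in this order overlapped, and E2F3 exceeded E2F8 in 6 of 12 libraries, so the order among these genes is not settled by the spread. FPKM are scaled to gene length, which allows levels to be compared between genes, as far as the length used by the authors fits each transcript. The levels of all members in each library are plotted.

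**Figure D1:**
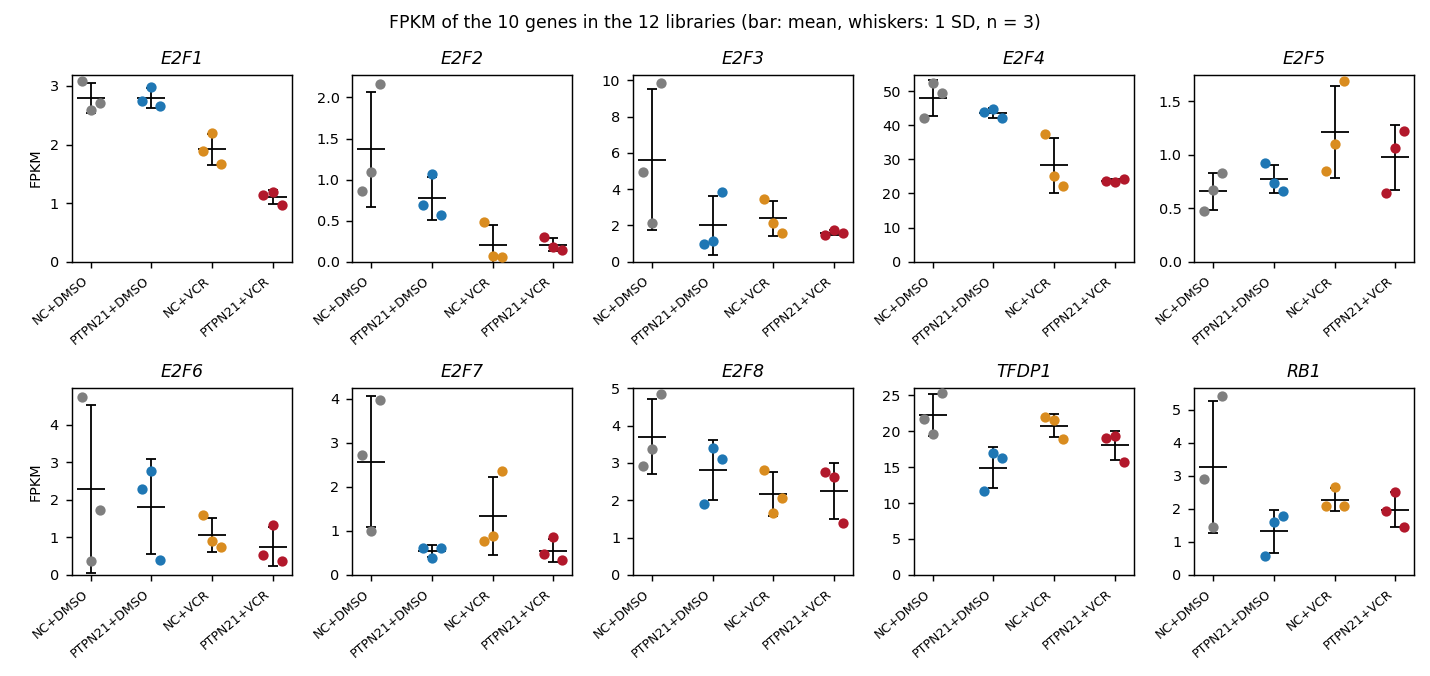
FPKM (vertical axis, a separate linear scale from 0 for each gene) of the 10 genes in the 4 groups (horizontal axis). Each point is 1 library, the horizontal bar is the mean and the whiskers are 1 SD (n = 3). E2F4 falls from 42.1 to 52.3 FPKM in the DMSO libraries to 22.2 to 37.5 FPKM in the VCR libraries, and E2F1 is lowest in PTPN21+VCR, at 0.962 to 1.19 FPKM.

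The first question was how these genes differed with VCR in control cells. E2F4 fell, and it was the only 1 of the 8 members tested that passed the threshold. The test was limma on log2(FPKM + 1) with Benjamini-Hochberg adjustment over 11591 genes, a scale on which changes of low genes are understated. In this comparison 36.2% of the genes tested passed the threshold (28.3% lower and 7.91% higher), so that 1 of 8 is not above the background. E2F4 measured 42.2, 52.3 and 49.4 FPKM in NC+DMSO and 37.5, 25.0 and 22.2 FPKM in NC+VCR. The 3 VCR libraries lay below the 3 DMSO libraries, with replicate 1 of NC+VCR nearest to them. The log2 fold change of E2F4 was −0.77 (95% interval −1.15 to −0.40, SE 0.171, limma adjusted p = 0.00470), which corresponds to a mean of 58.8% of that in NC+DMSO. The median of all genes tested was −0.36, and E2F4 lay 0.41 below it on the log2 scale. When the libraries were scaled by median ratios, the log2 fold change of E2F4 was −0.39 and no longer passed (limma adjusted p = 0.119).

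Among the activators, E2F1 measured 3.09, 2.59 and 2.72 FPKM in NC+DMSO and 1.89, 2.19 and 1.67 FPKM in NC+VCR. The groups did not overlap, but the log2 fold change of −0.38 (95% interval −0.78 to 0.01) did not pass (limma adjusted p = 0.117), and it was within 0.02 of the median of all genes. E2F2 was near the limit of detection, with 0.857, 1.09 and 2.17 FPKM in NC+DMSO and 0.478, 0.0695 and 0.0559 FPKM in NC+VCR. Its VCR libraries were all below its DMSO libraries, at a mean of 14.7% of the DMSO mean. E2F2 had a mean FPKM under 1 and was not tested. Without that filter its difference of −0.96 on the log2 scale passed (limma adjusted p = 0.0207). E2F3 measured 4.93, 2.13 and 9.85 FPKM in NC+DMSO and 3.44, 2.11 and 1.61 FPKM in NC+VCR. Its control libraries were spread over a wide range that the VCR libraries overlapped, and the log2 fold change of −0.83 (95% interval −1.78 to 0.12) did not pass (limma adjusted p = 0.157).

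The remaining members did not pass either. E2F5, the relative of E2F4, measured 0.478, 0.670 and 0.824 FPKM in NC+DMSO and 0.847, 1.10 and 1.69 FPKM in NC+VCR. It was the single member with every VCR library above every DMSO library, but it lay under the minimum of the test, and without the filter its difference of 0.40 did not pass (limma adjusted p = 0.253). E2F6 measured 4.75, 0.368 and 1.73 FPKM in NC+DMSO and 1.59, 0.891 and 0.736 FPKM in NC+VCR, and its control libraries spanned more than its VCR libraries did. For the atypical E2F8 the values were 2.91, 3.36 and 4.84 FPKM in NC+DMSO and 2.80, 1.65 and 2.07 FPKM in NC+VCR, without overlap, with a log2 fold change of −0.56 (95% interval −1.14 to 0.02, limma adjusted p = 0.118). E2F7 measured 2.72, 1.01 and 3.97 FPKM in NC+DMSO and 0.774, 0.883 and 2.35 FPKM in NC+VCR. These groups overlapped, and the log2 fold change was −0.58 (95% interval −1.31 to 0.16, limma adjusted p = 0.202).

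TFDP1, the partner of E2F1 to E2F6, measured 21.7, 19.6 and 25.3 FPKM in NC+DMSO and 21.9, 21.5 and 18.9 FPKM in NC+VCR, and the log2 fold change was −0.09 (95% interval −0.46 to 0.28). RB1 measured 2.92, 1.46 and 5.43 FPKM in NC+DMSO and 2.08, 2.68 and 2.10 FPKM in NC+VCR, and its log2 fold change was −0.27 (95% interval −1.01 to 0.46). Neither difference passed the limma test, with adjusted p = 0.707 for TFDP1 and adjusted p = 0.544 for RB1, and the intervals leave room for a change in either direction. In all, the groups did not overlap in 5 of 10 members, 4 lower and 1 higher. Of the genes tested, 44.1% did not overlap, 33.9% lower and 10.2% higher, but E2F2 and E2F5 are not among these. Of the 8 members tested, E2F1, E2F4 and E2F8 did not overlap, each lower, which is not above that share. The log2 fold change of E2F3 passed when replicate 2 of NC+DMSO was left out (−1.28, limma adjusted p = 0.0342), as did that of E2F7 (−0.94, limma adjusted p = 0.0378). That library held the lowest control values of E2F3, E2F6, E2F7 and RB1. Without replicate 3 of NC+DMSO the values of E2F3 and E2F7 were −0.38 and −0.29, and neither passed.

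In PTPN21 cells, both E2F4 and E2F1 fell after VCR. They were 2 of the 8 members tested, against 28.5% of the genes tested, 19.3% lower and 9.22% higher, which is again near the background. E2F4 measured 43.8, 44.8 and 42.1 FPKM in PTPN21+DMSO and 23.8, 23.3 and 24.3 FPKM in PTPN21+VCR, 2 narrow groups far apart. Its log2 fold change was −0.85 (95% interval −1.22 to −0.48, SE 0.171, limma adjusted p = 0.00335), and the mean was 54.5% of that in PTPN21+DMSO. E2F1 measured 2.75, 2.98 and 2.65 FPKM in PTPN21+DMSO and 1.15, 1.19 and 0.962 FPKM in PTPN21+VCR. These groups were apart as well, and the mean with VCR was 39.3% of that with DMSO. The log2 fold change of E2F1 was −0.86 (95% interval −1.25 to −0.46, SE 0.181, limma adjusted p = 0.00434). The median of all genes tested was −0.17 here, and E2F1 lay 0.69 and E2F4 0.68 below it.

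The other members varied without passing the test. E2F2 measured 0.684, 1.07 and 0.568 FPKM in PTPN21+DMSO and 0.297, 0.177 and 0.145 FPKM in PTPN21+VCR. As in control cells the groups did not overlap, but without the filter its difference of −0.55 did not pass (limma adjusted p = 0.183). E2F3 measured 1.00, 1.13 and 3.86 FPKM in PTPN21+DMSO and 1.46, 1.73 and 1.60 FPKM in PTPN21+VCR, with a log2 fold change of −0.08 whose interval ran from −1.03 to 0.87. E2F5 measured 0.919, 0.737 and 0.659 FPKM in PTPN21+DMSO and 0.637, 1.06 and 1.22 FPKM in PTPN21+VCR, which overlapped. E2F6 had 2.28, 2.78 and 0.387 FPKM in PTPN21+DMSO and 0.538, 1.34 and 0.364 FPKM in PTPN21+VCR, and replicate 3 of each group was the lowest. E2F7 stood between 0.388 and 0.619 FPKM in PTPN21+DMSO and between 0.334 and 0.852 FPKM in PTPN21+VCR, and its log2 fold change was 0.00 (95% interval −0.74 to 0.74). E2F8 ranged from 1.89 to 3.41 FPKM in PTPN21+DMSO and from 1.39 to 2.76 FPKM in PTPN21+VCR, with a log2 fold change of −0.23 (95% interval −0.81 to 0.35).

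TFDP1 and RB1 were higher in PTPN21+VCR than in PTPN21+DMSO by their means, without passing. TFDP1 measured 11.6, 16.9 and 16.3 FPKM in PTPN21+DMSO and 19.1, 19.4 and 15.7 FPKM in PTPN21+VCR, a log2 fold change of 0.27 (95% interval −0.10 to 0.64, limma adjusted p = 0.266). RB1 measured 0.568, 1.59 and 1.80 FPKM in PTPN21+DMSO and 1.93, 2.52 and 1.46 FPKM in PTPN21+VCR, a log2 fold change of 0.39 (95% interval −0.35 to 1.12, limma adjusted p = 0.424). Their groups overlapped. The TFDP1 difference passed under median ratio scaling (0.45, limma adjusted p = 0.0444) and under quantile normalization (0.45, limma adjusted p = 0.0472). In all, the groups did not overlap in 3 of 10 members, each of them lower. Of the genes tested, 50.4% did not overlap, 33.3% lower and 17.0% higher, but E2F2 is not among these. Of the 8 members tested, E2F1 and E2F4 did not overlap.

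**Figure D2:**
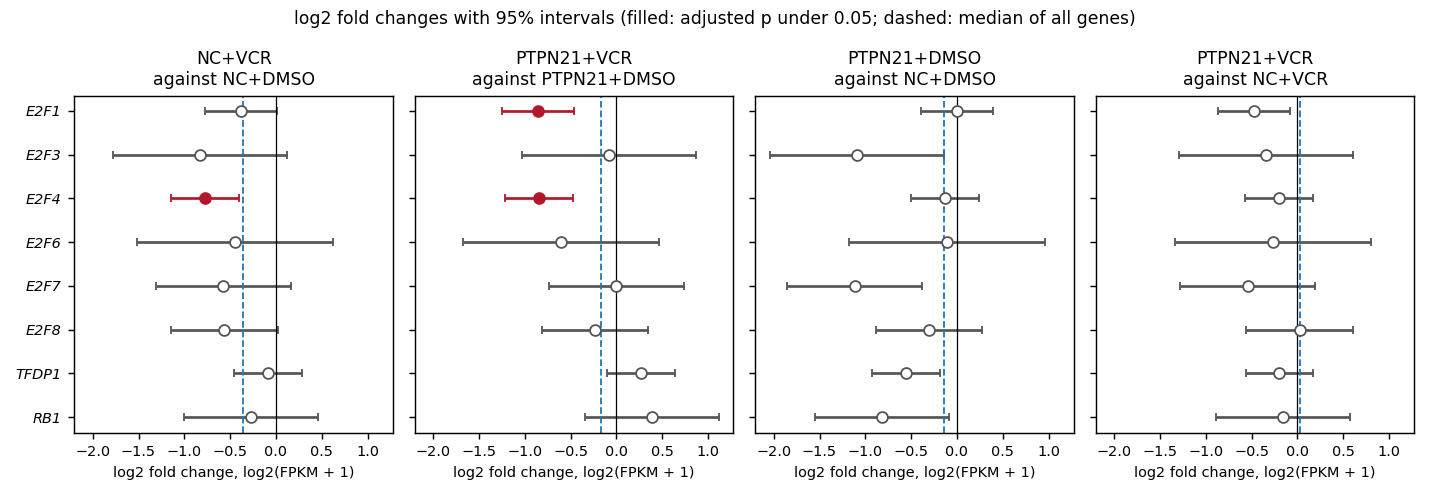
Log2 fold change on the log2(FPKM + 1) scale (horizontal axis) of the 8 members tested (vertical axis) in 4 comparisons. Circles are limma estimates with 95% intervals, filled where the adjusted p is under 0.05, and the dashed line is the median of all 11591 genes tested. E2F4 is filled in both VCR comparisons (−0.77 and −0.85), E2F1 only in PTPN21 cells (−0.86), and no circle is filled in the comparisons of PTPN21 with NC.

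Other measures moved with VCR in the same libraries. The share of guanine and cytosine in the transcript was 62.5% for E2F1, 59.3% for E2F4 and 57.5% for E2F2, whereas it was 37.3% to 46.6% for the other 7 members. Across genes, the Spearman correlation between the level in a library, relative to all libraries, and this content was −0.0940 to 0.269 in NC+DMSO and 0.246 to 0.329 in PTPN21+DMSO, and it was −0.266 to −0.0554 in NC+VCR and −0.288 to −0.147 in PTPN21+VCR. After a correction for this content and for length, which was added once the values were known, the log2 fold change of E2F4 was −0.55 in NC cells (limma adjusted p = 0.0179) and −0.50 in PTPN21 cells (limma adjusted p = 0.0371). That of E2F1 in PTPN21 cells was −0.43 and no longer passed (limma adjusted p = 0.150). Marker genes moved as well. The erythroid gene HBA1 was 82.5 to 87.5 FPKM in NC+DMSO and 49.4 to 57.8 FPKM in NC+VCR, and 133 to 190 FPKM in PTPN21+DMSO and 60.1 to 75.4 FPKM in PTPN21+VCR. The summed FPKM of the 4 epithelial genes was 388 to 589 and 510 to 579 in NC+DMSO and PTPN21+DMSO, and it was 1153 to 1359 and 1203 to 1676 in the 2 VCR groups. The summed FPKM of the 9 T lineage genes, nearly all of it CD3D, was 62.2 to 96.4 in NC+DMSO and 109 to 133 in NC+VCR, and 117 to 141 in PTPN21+DMSO and 108 to 113 in PTPN21+VCR. Of erythroid genes looked up after the values were seen, the transcription factors GATA1, KLF1 and NFE2 were 57.4 to 106, 23.4 to 39.7 and 107 to 161 FPKM with DMSO and 13.5 to 25.3, 1.39 to 3.72 and 15.1 to 31.7 FPKM with VCR. The fetal globin gene HBG2 was 780 to 2985 FPKM with DMSO and 560 to 853 FPKM with VCR, with overlap. The part of these measures in the E2F results was not tested. In RNA from whole cultures, fewer cells of a kind and less RNA per cell cannot be told apart.

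The next question was whether PTPN21 itself altered the family in cells kept in DMSO. No member passed the limma test, and 6.34% of all genes tested did (3.69% lower and 2.65% higher). The unadjusted p was under 0.05 for 4 of the 8 members tested, each lower in PTPN21+DMSO, and for 2968 (25.6%) of the 11591 genes tested. E2F7 measured 0.619, 0.388 and 0.614 FPKM in PTPN21+DMSO against 2.72, 1.01 and 3.97 FPKM in NC+DMSO, without overlap and at a mean of 21.1% of the control. Its log2 fold change was −1.12 (95% interval −1.85 to −0.38, limma adjusted p = 0.0677). E2F7 met the minimum of the test through the NC groups, since its PTPN21 group means were 0.541 and 0.552 FPKM. TFDP1 was also apart, with 11.6, 16.9 and 16.3 FPKM against 21.7, 19.6 and 25.3 FPKM, and its log2 fold change was −0.55 (95% interval −0.92 to −0.18, limma adjusted p = 0.0715). TFDP1 passed with TPM scaling (−0.71, limma adjusted p = 0.0439) and with the FPKM minimum raised to 5 (−0.55, limma adjusted p = 0.0478).

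E2F3 and RB1 overlapped between PTPN21+DMSO and NC+DMSO. The log2 fold change of E2F3 was −1.09 (95% interval −2.04 to −0.14, limma adjusted p = 0.142), and that of RB1 was −0.82 (95% interval −1.55 to −0.08, limma adjusted p = 0.154). These values depended on single libraries of NC+DMSO. Without replicate 2 E2F3, E2F7 and RB1 passed, with log2 fold changes of −1.55, −1.48 and −1.16 and limma adjusted p = 0.0354, 0.0167 and 0.0403. Without replicate 3 the log2 fold changes were −0.65, −0.83 and −0.47, and none of them passed. Over all genes the number that passed was 735, and it ran from 54 without replicate 1 of PTPN21+DMSO to 1347 without replicate 2 of NC+DMSO. In contrast, E2F1 had means of 2.80 FPKM in both groups and a log2 fold change of 0.00 (95% interval −0.39 to 0.39), and E2F4 differed by −0.13 (95% interval −0.50 to 0.24). E2F6 (−0.11) and E2F8 (−0.31) had limma adjusted p = 0.916 and 0.504. E2F2 and E2F5, which were not tested, differed by −0.39 and 0.10. The groups did not overlap in 2 of 10 members, E2F7 and TFDP1, both lower and both among the 8 tested. Of the genes tested, 33.4% did not overlap, 21.9% lower and 11.5% higher.

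With VCR in both groups, PTPN21 cells were compared with NC cells, the comparison for which the study sequenced RNA. No member passed the limma test, as against 1.82% of all genes tested (0.820% lower and 1.00% higher), and 1 member, E2F1, had an unadjusted p under 0.05, as did 1980 (17.1%) of all genes tested. E2F1 measured 1.15, 1.19 and 0.962 FPKM in PTPN21+VCR and 1.89, 2.19 and 1.67 FPKM in NC+VCR. All 3 PTPN21 libraries were below all 3 NC libraries, at a mean of 57.2% of that of NC+VCR. The log2 fold change was −0.47 (95% interval −0.87 to −0.08, limma adjusted p = 0.200). E2F1 was the only 1 of 10 members, and of the 8 tested, without overlap. Of the genes tested, 22.5% did not overlap, 10.2% lower and 12.3% higher. E2F4 differed by −0.20 (95% interval −0.58 to 0.17, limma adjusted p = 0.599) and this value was 0.01 when replicate 1 of NC+VCR, the highest of its group, was left out. E2F7 differed by −0.54, E2F3 by −0.35, E2F6 by −0.26, TFDP1 by −0.20, RB1 by −0.16 and E2F8 by 0.02 on the log2 scale, with limma adjusted p between 0.452 and 0.977. E2F2 and E2F5 differed by 0.02 and −0.16.

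Whether VCR acted differently in PTPN21 cells was tested by the interaction of PTPN21 overexpression and VCR. No member passed, and 0.129% of all genes tested did, 0.104% with a negative and 0.0259% with a positive interaction. For E2F1 the change with VCR was 0.47 lower in PTPN21 cells than in NC cells (95% interval of the interaction −1.03 to 0.08, limma adjusted p = 0.417), so a different response of E2F1 was not shown although its change passed in 1 kind of cell alone. The interaction of E2F4 was −0.07 (95% interval −0.60 to 0.45). For the other 6 members tested it ran from −0.16 for E2F6 to 0.75 for E2F3, and the intervals all held 0. These comparisons share groups and are not independent of each other.

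The make-up of the E2F transcripts was followed as the share of each gene in the summed FPKM of E2F1 to E2F8. The sum was 67.0 ± 7.45 in NC+DMSO and 38.5 ± 9.36 in NC+VCR, and it was 55.1 ± 1.92 in PTPN21+DMSO and 31.2 ± 0.961 in PTPN21+VCR (mean ± SD, n = 3). It was 61.9 to 75.5 against 32.4 to 49.3 in NC cells and 54.0 to 57.3 against 30.3 to 32.2 in PTPN21 cells, so that the VCR libraries were lower without overlap. Since E2F4 held 65.4% to 82.4% of the sum in every library, this fall largely repeats that of E2F4. E2F4 made up 72.0% ± 9.09 of the sum in NC+DMSO and 72.8% ± 3.85 in NC+VCR, and 79.2% ± 1.79 in PTPN21+DMSO and 76.3% ± 3.99 in PTPN21+VCR, and its share overlapped between DMSO and VCR in both kinds of cells. The share of E2F1 was 4.22% ± 0.709, 5.15% ± 1.32, 5.07% ± 0.147 and 3.51% ± 0.295 in the same order, and in PTPN21 cells the groups were apart (4.91% to 5.21% against 3.17% to 3.68%). E2F5 took 0.973% ± 0.175 and 1.40% ± 0.261 with DMSO and 3.39% ± 1.76 and 3.13% ± 1.00 with VCR, the lowest VCR shares being 1.72% and 2.05% and the highest DMSO shares 1.09% and 1.70%. A share also rises when the sum falls, and the FPKM of E2F5 overlapped between DMSO and VCR in PTPN21 cells. These shares are given as a description and were not tested.

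**Figure D3:**
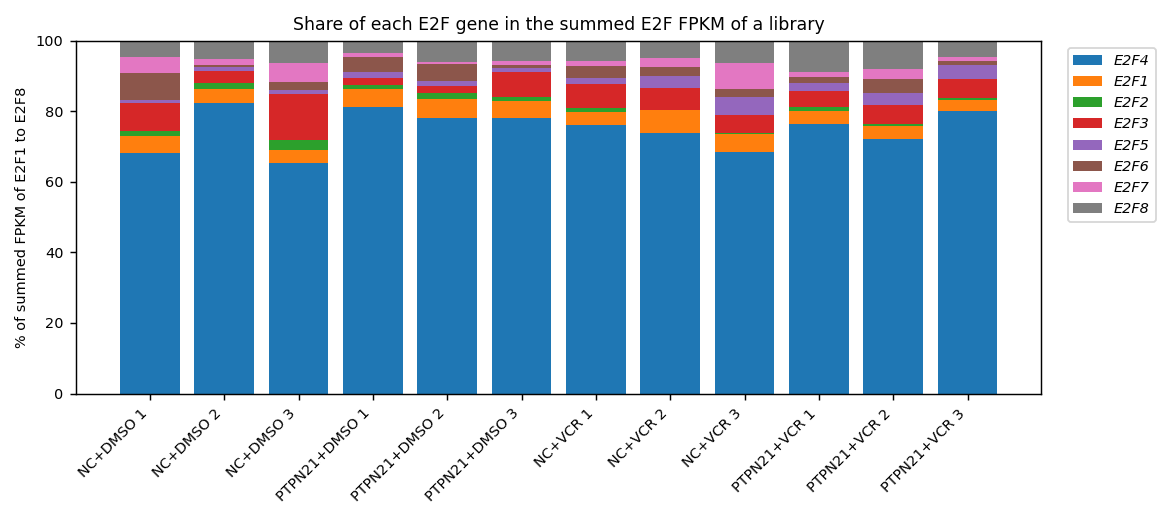
Share of each E2F gene in the summed FPKM of E2F1 to E2F8 (vertical axis, percent, from 0 to 100) in each of the 12 libraries (horizontal axis). Each bar is 1 library and each colour 1 gene. E2F4 takes 65.4% to 82.4% of every bar, and the share of E2F3 reaches 13.0% in replicate 3 of NC+DMSO.

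The partners and targets of the family were then counted in 4 lists, written from textbook knowledge with earlier results of these data known. After VCR in NC cells, 28.3% of all genes tested fell and 7.91% rose. Among the genes that E2F factors are known to induce at G1/S, 34 of 46 tested fell and none rose (median log2 fold change −0.78, against −0.36 for all genes). UNG, which removes uracil from DNA, fell the most (−2.06, limma adjusted p = 0.00192) and CCNA2, the cyclin of S phase, the least (−0.40, limma adjusted p = 0.0229) of those that passed. In PTPN21 cells, where 19.3% of all genes tested fell and 9.22% rose, 23 of 46 fell and 1 rose (median −0.48, against −0.17). POLA2, a subunit of the DNA polymerase that starts each strand, fell the most (−2.05, limma adjusted p = 0.00347), and GINS1, part of the replicative helicase, was the gene that rose (1.11, limma adjusted p = 0.00188). Under median ratio scaling 18 of the 46 passed in NC cells and 18 in PTPN21 cells, as did 3078 and 3033 of the 11591 genes tested. In DMSO, PTPN21 cells were lower for 6 of 46 and higher for none (median −0.22, against −0.14), where 3.69% of all genes tested were lower, from GINS1 (−1.16, limma adjusted p = 0.0124) to EZH2 (−0.60, limma adjusted p = 0.0377). This count was 0 without replicate 1 of PTPN21+DMSO and 8 without replicate 2 of NC+DMSO. With VCR, the helicase subunit MCM4 alone was lower in PTPN21 cells than in NC cells (−0.92, limma adjusted p = 0.0447, median of the list −0.01), and no gene of the list passed for the interaction (median 0.28).

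Of the RB relatives, DP partners and subunits of the DREAM and MuvB complexes, the first of which can hold E2F4, 10 of 12 were tested. In NC cells 5 fell after VCR and none rose (median −0.70, against −0.36 for all genes, of which 28.3% fell), from LIN37 (−1.25, limma adjusted p = 0.0432) to TFDP2, the other DP partner (−0.70, limma adjusted p = 0.0222), whereas none of the list passed under quantile normalization and 1 passed without replicate 2 of NC+VCR. Under quantile normalization 2933 of the 11591 genes tested passed in this comparison. In PTPN21 cells TFDP2 (−1.51, limma adjusted p = 0.000318) and MYBL2, the Myb factor of MuvB (−0.46, limma adjusted p = 0.0396), fell (median −0.32, against −0.17 for all genes, of which 19.3% fell). In DMSO, PTPN21 cells were higher for TFDP2 (0.85, limma adjusted p = 0.0376) and lower for LIN54, the DNA binding subunit of MuvB (−0.97, limma adjusted p = 0.0448), and the number that passed was 0 without replicate 1 of NC+DMSO and 4 without replicate 2 of NC+DMSO. Of all genes tested, 2.65% were higher and 3.69% lower in this comparison. The TFDP2 value went the opposite way from that of TFDP1 (−0.55, limma adjusted p = 0.0715). No gene of this list passed between PTPN21+VCR and NC+VCR (median −0.16) or for the interaction (median 0.54).

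Of the kinases of RB1, their cyclins and their inhibitors, 13 of 15 were tested. After VCR, 5 fell and 1 rose in NC cells (median −0.68, against −0.36 for all genes), and 3 fell and 1 rose in PTPN21 cells (median −0.45, against −0.17). Of all genes tested, 36.2% passed after VCR in NC cells and 28.5% in PTPN21 cells, and 6.34% passed between PTPN21 and NC cells in DMSO. The gene that rose in both was CDKN1A, the p21 inhibitor of cyclin kinases, by 1.84 (limma adjusted p = 0.000459) in NC cells and by 1.36 (limma adjusted p = 0.00351) in PTPN21 cells. CDK4, a kinase that acts with D cyclins, fell the most in NC cells (−1.55, limma adjusted p = 8.48e-05) and the cyclin CCND1 in PTPN21 cells (−1.75, limma adjusted p = 2.18e-05). In DMSO, CCNE2, a cyclin E, was the single gene that passed between PTPN21 and NC cells (−1.09, limma adjusted p = 0.0410). It did not pass when replicate 1 of NC+DMSO was left out, nor without replicate 1 of PTPN21+DMSO. None of the list passed between the VCR groups or for the interaction (medians −0.20 and 0.06).

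Of the 16 mitotic genes, 15 were tested. After VCR, 5 of them rose and 3 fell in NC cells (median 0.10, against −0.36 for all genes), and 7 rose and 1 fell in PTPN21 cells (median 0.54, against −0.17). Of all genes tested, 7.91% rose and 28.3% fell in NC cells, and 9.22% rose and 19.3% fell in PTPN21 cells. Within the list, the mitotic kinase PLK1 rose the most in NC cells (1.23, limma adjusted p = 0.000280) and AURKA in PTPN21 cells (1.51, limma adjusted p = 0.000458). The checkpoint kinase BUB1 was the lowest of those that passed in NC cells (−0.48, limma adjusted p = 0.0223). The topoisomerase TOP2A was the one that fell in PTPN21 cells (−0.65, limma adjusted p = 0.000862). In DMSO 3 mitotic genes were lower in PTPN21 cells, as were 3.69% of all genes tested. They ran from BUB1B (−1.04, limma adjusted p = 0.0435) to the kinesin KIF11 (−0.89, limma adjusted p = 0.0370). With VCR TOP2A alone was lower in PTPN21 cells (−0.46, limma adjusted p = 0.0495). The count in DMSO was 0 without replicate 1 of NC+DMSO and 4 without replicate 2 of NC+DMSO, and it was also 0 without replicate 3 of NC+DMSO or replicate 1 or 3 of PTPN21+DMSO. None passed for the interaction (median 0.28).

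Genes whose levels ran most like those of each member were sought over the 12 libraries, as a description without a test. The points share 4 groups, so the values follow group differences, depth and base composition as well. For E2F4 these were PTOV1-AS2 (Pearson r = 0.975) and the histone gene H2AX (r = 0.974), and for E2F1 they were CADM4 (r = 0.963) and ATG3 (r = 0.960). PTOV1-AS2 is an antisense gene whose reads may not be told apart from those of its partner, since the use of strand is not stated. TFDP1 ran with MSN (r = 0.972) and TPX2 (r = 0.966), and RB1 with ATAD2 (r = 0.963) and KDM1B (r = 0.949). E2F8 ran with KMT5AP1 (r = 0.952), a pseudogene, and NLRP1 (r = 0.945), E2F7 with ZBED4 (r = 0.939) and LSM14A (r = 0.900), and E2F3 with MITF (r = 0.928) and CYB5RL (r = 0.902). E2F6 had the lowest of these values, with SLC29A3 (r = 0.823) and the pseudogene FAM86C2P (r = 0.801).

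In the annotation used here (GENCODE release 29, GRCh38), E2F1 lies on chromosome 20 (33675683 to 33686404, minus strand), E2F2 on chromosome 1 (23506430 to 23531220, minus strand), E2F3 on chromosome 6 (20401906 to 20493715, plus strand) and E2F4 on chromosome 16 (67192169 to 67198918, plus strand). E2F5 lies on chromosome 8 (85177225 to 85217158, plus strand), E2F6 on chromosome 2 (11444375 to 11466177, minus strand), E2F7 on chromosome 12 (77021247 to 77065580, minus strand) and E2F8 on chromosome 11 (19224063 to 19241620, minus strand). TFDP1 and RB1 are both on the plus strand of chromosome 13, at 113584721 to 113641470 and at 48303726 to 48599436. The deposited values are given by gene, so that isoforms such as the pair transcribed from the 2 RefSeq starts of E2F3 are not separated. How the transcripts of a gene were combined is not given in the sources used here.

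How the values of E2F4 and E2F1 moved with the processing was plotted because these were the members that passed. E2F4 passed in 22 of 23 alternatives in NC cells and in 22 of 23 in PTPN21 cells. It did not pass under median ratio scaling in NC cells (limma adjusted p = 0.119). In PTPN21 cells it did not pass with replicate number in the model and the GC content and length correction (limma adjusted p = 0.0549). Leaving out 1 library at a time kept its log2 fold change between −0.99 and −0.62 in NC cells and between −0.87 and −0.83 in PTPN21 cells. E2F1 passed in 20 of 22 alternatives in PTPN21 cells and in 1 of 22 in NC cells. For both genes 12 of the alternatives leave out 1 library. Where that library is in neither group compared, the log2 fold change cannot move, so these counts overstate how much was varied.

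**Figure D4:**
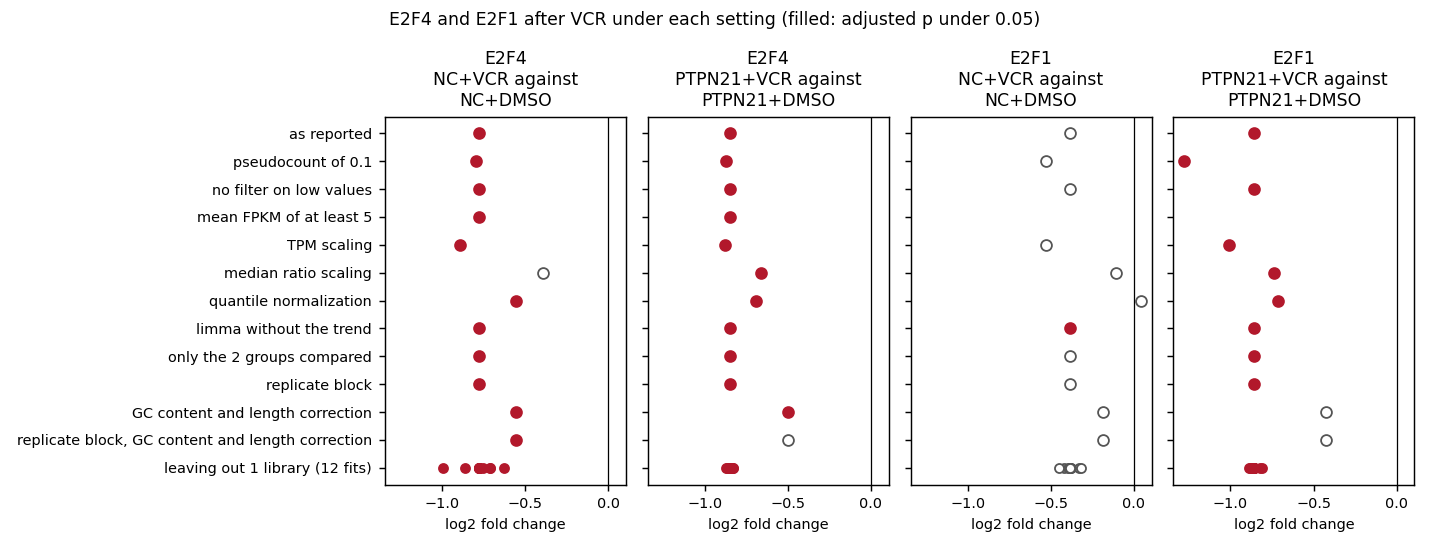
Log2 fold change after VCR (horizontal axis) of E2F4 and E2F1 in NC and in PTPN21 cells under each setting of the processing (vertical axis). Points are limma estimates, filled where the adjusted p is under 0.05, and the bottom row holds the 12 fits that each leave out 1 library. E2F4 in NC cells is not filled under median ratio scaling (−0.39), and E2F1 in PTPN21 cells is not filled under the correction for GC content and length (−0.43).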

How the data were processed

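Total RNA of 12 libraries was sequenced and processed by an external company. The authors deposited a table of FPKM for 60671 genes. The submitters' processing notes name fastp, Bowtie2 and the mouse build mm10, although the identifiers in the table are human, and 96.3% of them are in GENCODE release 29 (GRCh38). The counting program and the transcript lengths are not given in the sources used here. Groups were taken from the labels.

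The deposited FPKM were taken to log2(FPKM + 1). Genes averaging 1 FPKM or more were kept (11591), and limma 3.58.1 (R 4.3.3) with an intensity trend was fitted to 1 model of the 4 group means, with 8 residual degrees of freedom. Benjamini-Hochberg adjustment covered these 11591 genes at a threshold of 0.05, and 95% intervals are from the same fit. The 5 comparisons included the interaction. The fit was tested on simulated data.

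The 10 genes were set by name. The lists and these genes were chosen with earlier results of these data known. Some marker genes that were looked up are not reported here. List genes are named only where they had the largest or smallest log2 fold change among those past the threshold, and for each member tested the 2 genes of highest Pearson correlation are named. Relative depth came from 9174 single-exon genes over 500 bases, of whose low values 44.9% to 51.4% lay within 0.1 of a whole step, against 20% by chance. The range of steps searched was chosen after the data were seen, and a step of 1 read and of 1 fragment cannot be separated. Promoters are from RefSeq, where 8 members had an entry. The results were recomputed with 0.1 as pseudocount, without the filter, with the FPKM minimum at 5, with TPM, median ratio and quantile scaling, without the trend, from the 2 groups of a comparison alone, with a replicate block and without each library in turn. A correction for GC content and length, alone and with the block, was added after seeing the data and covered 99.3% of the genes tested. Tables and plots were made with Python 3.11.15, pandas 2.3.3, numpy 2.4.6 and matplotlib 3.10.9.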

Additional observations from a re-analysis of the deposited data

How the results depend on the processing

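Among the values of single members, 310 of 332 planned settings, 71 of 80 added settings and 453 of 480 fits that leave out 1 library kept their direction and their side of the threshold. In a comparison of 2 groups, leaving out a library of neither group cannot change the log2 fold change. The same holds for settings that change only the filter, the trend, the groups fitted or the block. These counts therefore overstate how stable the direction is. The number of members past the threshold after VCR in NC cells was 2 without the trend (E2F4 and E2F1), 2 with no filter (E2F4 and E2F2) and 0 under median ratio scaling, against 1 as reported, and 1 to 3 when 1 library was left out, with 3 without replicate 2 of NC+DMSO. Among all genes, 3078 passed under median ratio scaling and 3198 to 4007 when 1 library was left out, against 4192 of 11591 as reported. In PTPN21 cells the number of members was 3 with median ratio scaling and 3 with quantiles matched (TFDP1 higher in both), 1 with the FPKM minimum raised to 5 and 1 with the GC content and length correction, against 2 as reported. Among all genes, 3033 passed with median ratio scaling, 3190 with quantiles matched and 3086 with that correction, against 3308 as reported. In the comparison of PTPN21 with NC in DMSO the number of members was 1 under TPM scaling and 1 with the minimum of 5, against 0 as reported, and 0 to 3 when 1 library was left out. Among all genes, 1062 passed under TPM scaling and 54 to 1347 when 1 library was left out, against 735 as reported. Replicate numbers did not pair the libraries (correlations of −0.145 to 0.0583 over 18 pairs, none above 0.1). The replicate block left the members past the threshold at 1, 2, 0, 0 and 0 in the 5 comparisons, and with the GC content and length correction it left 0 in PTPN21 cells after VCR (E2F4 −0.50, limma adjusted p = 0.0549). Over all genes it took the number past the threshold from 735 to 242 for PTPN21 in DMSO, from 211 to 74 for PTPN21 with VCR and from 15 to 8 for the interaction.

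Values that changed sign did not pass the threshold on either side. Under median ratio scaling these were TFDP1 (0.29) and RB1 (0.012) in NC cells after VCR, E2F3 in PTPN21 cells after VCR (0.040), and E2F4 (0.052) and E2F6 (0.0045) for PTPN21 in DMSO. Under quantile normalization they were E2F1 (0.040), TFDP1 (0.20) and RB1 (0.15) in NC cells after VCR, E2F3 in PTPN21 cells after VCR (0.11) and E2F8 for PTPN21 with VCR (−0.042). Under TPM scaling they were E2F1 for PTPN21 in DMSO (−0.12), E2F7 in PTPN21 cells after VCR (−0.0095), E2F8 for PTPN21 with VCR (−0.021) and the interaction of E2F4 (0.013), and with a pseudocount of 0.1 it was E2F7 in PTPN21 cells after VCR (−0.031). With the GC content and length correction, alone or with the block, they were E2F1 for PTPN21 in DMSO (−0.22), E2F7 in PTPN21 cells after VCR (−0.21) and the interaction of E2F4 (0.056). The cause of these changes was not tested. When 1 library was left out, the values that changed sign ran from −0.039 to 0.055 for E2F1, and from −0.62 to 0.42 for E2F6, for PTPN21 in DMSO; from −0.96 to 0.079 for E2F6, −0.62 to 0.075 for RB1 and −0.17 to 0.0061 for TFDP1 in NC cells after VCR; from −0.31 to 0.33 for E2F3 and −0.13 to 0.10 for E2F7 in PTPN21 cells after VCR; from −0.35 to 0.013 for E2F4 and −0.099 to 0.23 for E2F8 for PTPN21 with VCR; and from −0.22 to 0.14 for E2F4 and −0.68 to 0.35 for E2F6 in the interaction.

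Scaling set the balance of calls over all genes. The share of calls that were higher was 21.9%, 32.3% and 41.8% for VCR in NC cells, VCR in PTPN21 cells and PTPN21 in DMSO, against 55.8%, 52.2% and 73.6% under median ratio scaling and 52.5%, 51.6% and 54.5% under quantile normalization, and 21.0% for PTPN21 in DMSO under TPM scaling. Median ratio scaling moved the median of all genes in NC cells after VCR from −0.36 to −0.04. Over all alternatives the number of genes past the threshold ran from 2674 to 4553, 2354 to 4157, 40 to 1347, 43 to 357 and 4 to 42 in the 5 comparisons, in the order of the report. The number of G1/S genes past the threshold ran from 18 to 36 in NC cells and 18 to 26 in PTPN21 cells after VCR. With 3 libraries a group, the intervals of E2F3, E2F6, E2F7, E2F8 and RB1 span more than 1 on the log2 scale.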
